A study of Mus musculus with 8 samples.

Results

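The early response of mouse peritoneal macrophages to histidine-rich glycoprotein (HRG) was read from the 4 arrays of 6 h, out of 8 arrays in the series, as HRG against basal across 19938 genes. These are the genes whose symbol stood alone on at least 1 of the 28853 rows of the Affymetrix value table, and where a gene had several rows, the one with the highest mean level in the series stood for it. The cells came from wild-type C57/Bl6 mice by peritoneal lavage, were pooled from 10 mice and were kept overnight in RPMI with 5% fetal calf serum. The groups were HRG at 6 h (recombinant HRG at 1 µg/ml for 6 h, 2 arrays), basal at 6 h (untreated, 2 arrays), HRG at 24 h (2 arrays) and basal at 24 h (2 arrays), all of wild-type cells. Because 1 pool served every group and no label tells of separate cultures, the p-values here reflect nothing but the spread between these samples. That spread may be technical, and precision is limited by the number of arrays.

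HRG is a plasma glycoprotein made mainly by the liver that binds heparan sulphate, immunoglobulins, thrombospondin and other ligands, and it can attach to the surface of phagocytes and dying cells. Peritoneal macrophages are resident phagocytes that take up dying cells and release cytokines. One of the programmes such cells can run is the amino acid response: when amino acids are short or the endoplasmic reticulum (ER) is under stress, the translation factor eIF2 is phosphorylated, the transcription factor ATF4 is made, and with partners such as CHOP and the C/EBP proteins it binds a composite site, the CARE, at genes for amino acid import, amino acid synthesis and tRNA charging.

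Levels below are the deposited RMA values on the log2 scale, differences are HRG minus basal on that scale with the standard error (SE) of the limma fit, and "rose" and "fell" mean a Benjamini-Hochberg adjusted p under 0.05 over all 19938 genes. The rows carry different probes, so levels are compared between arrays and not between genes. The macrophage markers set beside an array's upper quartile are the exception, and only a rough guide. The macrophage label was borne by its markers: Lyz2 read 13.79 and 13.85 on the HRG arrays and 13.82 and 13.80 on the basal arrays, Adgre1 read 13.40 and 13.50 against 13.47 and 13.38, and Csf1r, Cd68, Cd14 and Itgam all read above 12, while the upper quartile of an array lay between 9.16 and 9.26. Replicate arrays of a group correlated at 0.996 to 0.998 over all rows. The lower quartile of an array ran between 5.85, on basal 6 h replicate 1, and 6.00.

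After 6 h with HRG, 26 of 81 genes of the amino acid response, amino acid synthesis and transport, and tRNA charging fell, as did transcripts of the cytokines Il12b, Il23a, Il6, Csf2 and Csf1 and of the costimulatory molecules Cd40, Cd80 and Cd83. The genes that rose included the creatine synthesis enzyme Gatm, the scavenger receptor Olr1, the purine and pyrimidine nucleotide genes Nt5e and P2ry6, and the apoptotic cell uptake receptors Mertk, Itgb5 and Stab1. In numbers, 86 genes rose (0.431% of those tested) and 163 fell (0.818%), together 249 (1.25%). Of these, 4 risen and 18 fallen genes differed at least 2-fold, 46 and 65 between 1.5-fold and 2-fold, and 36 and 80 by less, with 1.338-fold as the smallest change that passed. The median change was 1.53-fold among risen genes and 1.504-fold among fallen genes. Both HRG arrays lay on one side of both basal arrays for all 249 genes, while 20% of all genes had both HRG arrays above and 18.3% had both below both basal arrays.

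The number of calls rested on single arrays. It was 10 risen and 11 fallen genes without HRG 6 h replicate 2, 18 and 55 without HRG 6 h replicate 1, 31 and 31 without basal 6 h replicate 1, 44 and 145 without basal 6 h replicate 2, and 49 and 81 without either HRG 24 h array (left out 1 at a time), which enters through the shared estimate of spread. All 249 genes kept their sign in each of these fits, but this outcome was fixed. Both HRG arrays lay on one side of both basal arrays for all 249, so leaving out an array of 6 h could not turn a sign. An array of 24 h does not enter the 6 h difference. Of the 80 changed genes named by rule, 18 passed without HRG 6 h replicate 2, 40 without basal 6 h replicate 1, 47 without HRG 6 h replicate 1, 57 without basal 6 h replicate 2 or either HRG 24 h array, and 76 without either basal 24 h array. In all, 17 passed in each of the 16 other fits made at the same threshold on 1 row per gene: Gatm, Gna15, Itgb5, Nt5e, Olr1, P2ry6 and Tmem37 among the risen genes, and Aqp9, Chac1, Ddit3, Fam171b, Gadd45a, Il12b, Mospd4, Ppp1r15a, Slc7a5 and Trib3 among the fallen ones.

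**Figure D1:**
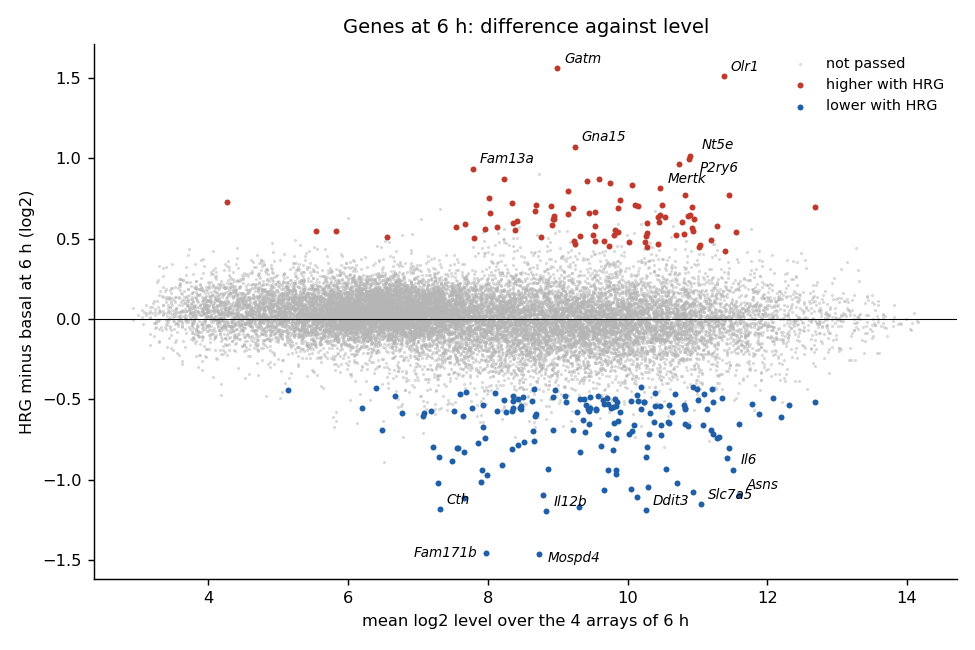
Difference between HRG and basal at 6 h (log2, vertical axis) against the mean log2 level over the 4 arrays of 6 h (horizontal axis), 1 point per gene. The 86 genes that rose are red and the 163 that fell are blue; Gatm (1.56) and Olr1 (1.51) lie highest, Mospd4 (-1.46) and Fam171b (-1.46) lowest.

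The CARE is the sequence feature by which ATF4 targets are known, so the promoters of members of the amino acid lists are shown first. The stretches below are from RefSeq's GRCm38.p6 table of promoter windows, which run from 250 bases before to 50 bases after a transcription start, and are printed along the gene's strand with the match to TGATGNAA, searched on both strands, in capitals. The first 5 belong to genes that fell: Asns at chr6:7693180-7693288 on the minus strand, Trib3 at chr2:152344031-152344102 on the minus strand, Chac1 at chr2:119350993-119351112 on the plus strand, Slc1a4 at chr11:20332684-20332773 on the minus strand and Yars at chr4:129189850-129189932 on the plus strand. The sixth is from Slc7a11, at chr3:50443616-50443735 on the minus strand, a gene of the same lists whose level hardly differed, and it holds a match on each strand.
Asns: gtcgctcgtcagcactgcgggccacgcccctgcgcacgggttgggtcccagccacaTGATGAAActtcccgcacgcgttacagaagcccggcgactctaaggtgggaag
Trib3: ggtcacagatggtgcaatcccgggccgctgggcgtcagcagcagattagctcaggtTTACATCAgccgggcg
Chac1: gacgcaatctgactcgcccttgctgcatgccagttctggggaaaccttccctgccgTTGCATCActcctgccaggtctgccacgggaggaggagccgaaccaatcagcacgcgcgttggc
Slc1a4: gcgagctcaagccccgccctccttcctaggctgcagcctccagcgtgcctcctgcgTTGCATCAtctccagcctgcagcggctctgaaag
Yars: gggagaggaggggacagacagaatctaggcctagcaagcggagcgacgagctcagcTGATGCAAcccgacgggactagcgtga
Slc7a11: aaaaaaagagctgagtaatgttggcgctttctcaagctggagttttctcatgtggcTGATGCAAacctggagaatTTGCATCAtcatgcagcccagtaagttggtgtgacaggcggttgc

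Among all tested genes with a window, 563 of 15563 (3.62%) held a match. The share was 13.1% (16 of 122) among genes that fell and 2.78% (2 of 72) among genes that rose. The 16 include Asns, Chac1, Gars, Got1, Herpud1, Jdp2, Pck2, Slc1a4, Trib3 and Yars, all members of the amino acid lists. Those lists were drawn up around the amino acid response, so the 13.1% does not describe the fallen genes outside them. In the amino acid response list 10 of 20 members with a window held one, and of those that fell 5 of 10 did: Asns, Chac1, Trib3, Herpud1 and Jdp2. The windows of Ddit3, Ppp1r15a, Sesn2, Gpt2 and Cebpg, which also fell, did not hold these letters. A match is a description of the window, not a bound site, and a window without one says only that the letters are not in those 300 bases.

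The amino acid response list held 23 measured genes, of which 12 fell, none rose and 11 did not pass; its median difference was -0.49, beside 0.02 over all genes. The transcription factors and signalling members are given first. Ddit3, which encodes CHOP, the transcription factor that ATF4 induces under lasting stress, read 9.79 and 9.54 on the HRG arrays, against 10.94 and 10.77 on the basal arrays. Both HRG arrays were lower, without overlap, and the difference was -1.19 ± 0.11 (2.28-fold lower, limma adjusted p = 0.000923). Ppp1r15a encodes GADD34, the phosphatase subunit that reverses eIF2 phosphorylation, and it read 8.83 and 8.60 with HRG, against 9.94 and 9.83 in basal cells. This was a fall of the same order, by 1.17 ± 0.13 on the log2 scale (limma adjusted p = 0.00352). Trib3, a pseudokinase that binds ATF4 and CHOP, read 9.68 and 9.35 on the HRG arrays, against 10.50 and 10.64 on the basal arrays. Its HRG arrays were again the lower ones, with a difference of -1.06 ± 0.12 (limma adjusted p = 0.00275).

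Chac1 breaks down glutathione and is a target of the ATF4 and CHOP pair. It read 8.33 and 8.15 with HRG, against 9.48 and 9.19 in basal cells, and fell by 1.09 ± 0.12 (2.13-fold). Sesn2, a leucine sensor that restrains mTORC1, read 9.50 and 8.99 with HRG, against 10.26 and 10.11 in basal cells; the HRG arrays differed more from each other than the basal arrays did, but the groups did not overlap (difference -0.94 ± 0.16, limma adjusted p = 0.0162). Falls also passed for Ndrg1, a stress-responsive gene (-0.94), Herpud1, a component of ER-associated degradation (-0.66), Jdp2, a basic leucine zipper repressor (-0.44), and Cebpg, a dimer partner of ATF4 (-0.42). Atf4 itself did not pass. It read 9.42 and 9.33 with HRG, against 9.83 and 9.89 in basal cells, without overlap, with a difference of -0.49 ± 0.11 and an adjusted p of 0.056. ATF4 is controlled largely at translation, and no protein was measured here. Atf3 (-0.21), Ddit4 (-0.31), Nupr1 (-0.52, adjusted p = 0.0678) and Slc7a11, the cystine transporter (0.03 ± 0.10, overlapping arrays), also did not pass.

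Enzymes that make amino acids and one-carbon units formed a list of 18 measured genes, 8 of which fell and none of which rose, with a median of -0.44. Asns, asparagine synthetase, read 11.14 and 10.96 on the HRG arrays, against 12.15 and 12.13 on the basal arrays. The groups were separated by about 1 log2 unit, and the difference was -1.09 ± 0.13 (2.13-fold lower, limma adjusted p = 0.00352). Mthfd2, the mitochondrial enzyme that oxidises methylene-tetrahydrofolate, read 11.15 and 10.83 with HRG, against 11.87 and 11.84 in basal cells, and was lower on both HRG arrays (difference -0.86 ± 0.12, limma adjusted p = 0.00549). Cth, which makes cysteine from cystathionine, read 6.73 and 6.71 with HRG, against 8.26 and 7.54 in basal cells. Its fall of 1.18 ± 0.19 came with unequal basal arrays. Aldh1l2 (-0.86) and Aldh18a1 (-0.81), which act in mitochondrial folate and proline synthesis, also fell, as did the transaminases Gpt2 (-0.77) and Got1 (-0.66) and the mitochondrial phosphoenolpyruvate carboxykinase Pck2 (-0.44). The serine synthesis enzymes Psat1 (-0.66, limma adjusted p = 0.0523) and Phgdh (-0.44, limma adjusted p = 0.0959) did not pass. Neither did Shmt2, a one-carbon enzyme of the same list (-0.43, limma adjusted p = 0.286).

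Of 22 measured amino acid transporters, 4 fell and 1 rose, with a median of -0.08. Slc7a5, the light chain of the leucine transporter LAT1, read 10.59 and 10.36 on the HRG arrays, against 11.63 on each basal array. Both HRG arrays were lower by more than 1 log2 unit, for a difference of -1.15 ± 0.14 (2.22-fold lower, limma adjusted p = 0.00352). Slc7a1, the arginine and lysine transporter CAT1, fell by 0.93 ± 0.14, Slc1a4, a transporter of alanine, serine and cysteine, by 0.74 ± 0.13, and Slc38a2, the glutamine transporter SNAT2, by 0.61 ± 0.10. Slc43a2, another carrier of large neutral amino acids, rose by 0.57 ± 0.10, a call that was lost without any 1 of the 4 arrays of 6 h. Slc3a2, the heavy chain that pairs with Slc7a5, read 13.38 and 13.39 with HRG, against 13.48 and 13.45 in basal cells, and did not pass (-0.08 ± 0.09).

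Of 22 measured genes for cytosolic aminoacyl-tRNA synthetases and their scaffold proteins, 5 fell and none rose, with a median of -0.30. Yars, for tyrosine, read 9.87 and 9.81 with HRG, against 10.69 and 10.71 in basal cells. The replicate arrays differed little beside the gap of -0.86 ± 0.12 between the groups (limma adjusted p = 0.00611). Cars (-0.71), Sars (-0.69), Wars (-0.56) and Gars (-0.47), for cysteine, serine, tryptophan and glycine, fell as well. Eprs (-0.43, adjusted p = 0.0509) and Mars1 (-0.51, adjusted p = 0.058) lay just beyond the threshold, and Hars (0.16), Qars (0.12) and Kars (0.07) had positive differences that did not pass. Because some genes stand in more than 1 list, the 4 amino acid lists together held 81 genes: 26 fell (32.1%), 1 rose and 54 did not pass, and the 26 made up 16% of all genes that fell. The lists were chosen with earlier results of these data known, so these shares are a description.

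The counts of these lists were lower without single arrays, while their medians stayed below 0. The median of the enzyme list ran between -0.55 and -0.38. Leaving out an array of 24 h cannot change a 6 h median. The amino acid response list had 4 falls without HRG 6 h replicate 2 and 7 without basal 6 h replicate 1, with medians between -0.53 and -0.45 over the 8 arrays left out in turn. The enzyme list had 0 and 5 falls in these fits. The synthetases had 0 falls without HRG 6 h replicate 2 and 3 without either basal 6 h array or either HRG 24 h array, and the transporters had 1 without HRG 6 h replicate 2 or basal 6 h replicate 1 and 2 without HRG 6 h replicate 1.

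**Figure D2:**
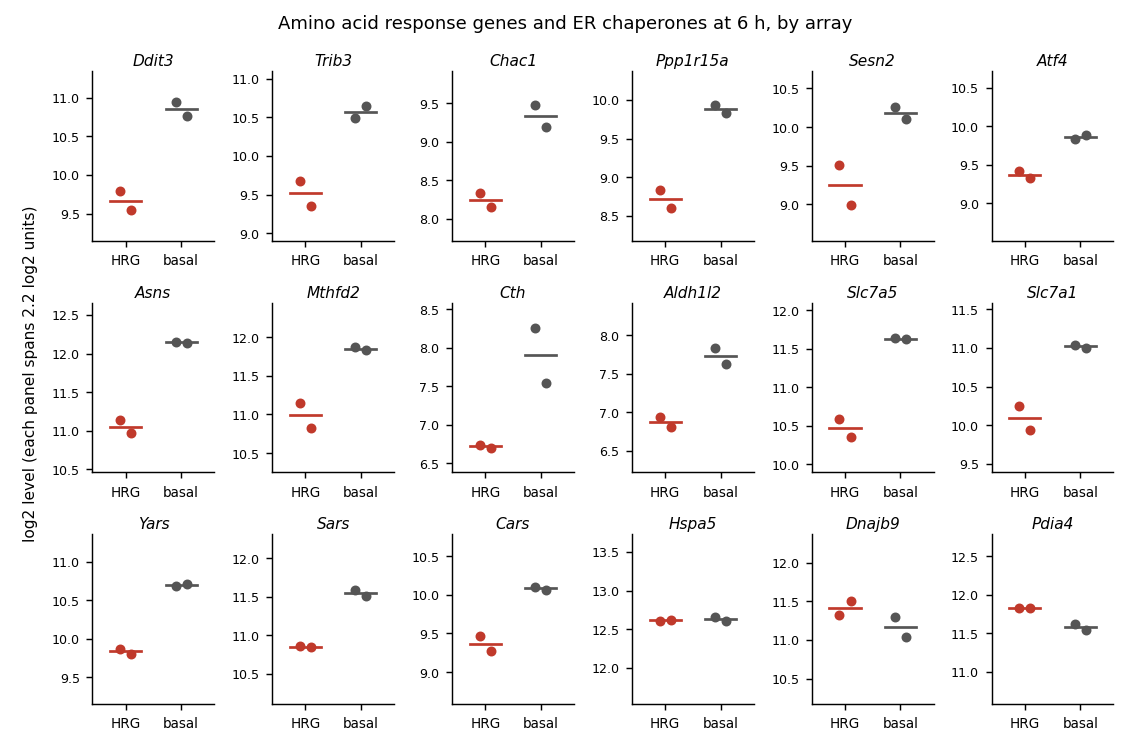
Log2 level of 18 genes on each HRG array (red, left) and each basal array (grey, right) at 6 h; dots are arrays, bars are means of 2, and every panel spans 2.2 log2 units. Both HRG arrays lie below both basal arrays for Ddit3, Asns and the other genes up to Cars, Atf4 among them, whereas Hspa5 overlaps (difference -0.02).

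ER chaperones, which the ATF6 and XBP1 arms of the unfolded protein response control, formed a list of 25 measured genes, of which 2 fell and none rose, with a median of 0.11. The 2 were Ern1, the ER stress sensor IRE1 (11.36 and 11.18 with HRG, against 11.95 and 11.89 in basal cells; difference -0.65 ± 0.10, limma adjusted p = 0.0120), and Herpud1, which stands in the amino acid response list too; without HRG 6 h replicate 2 or basal 6 h replicate 1 neither passed, and 1 did without basal 6 h replicate 2. Hspa5, the main ER chaperone BiP, read 12.61 and 12.62 on the HRG arrays, against 12.66 and 12.60 on the basal arrays. The groups overlapped, with a difference of -0.02 ± 0.09. Calr (0.12), Hsp90b1 (0.22), Pdia4 (0.24) and Dnajb9 (0.25) had small positive differences that did not pass. The ER stress response element (a CCAAT box and a CCACG box with 9 free bases between them, both strands) lay in the windows of 9 of 21 ER list members, against 0.135% of all windows and 0 of the 122 genes that fell; the one in Hspa5, at chr2:34771969-34772099 on the plus strand, is in capitals.
Hspa5: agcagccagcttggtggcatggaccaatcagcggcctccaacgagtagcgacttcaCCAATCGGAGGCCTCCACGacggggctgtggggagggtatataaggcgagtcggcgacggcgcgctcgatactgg

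Cytokines of the IL-12, IL-6 and colony-stimulating factor families formed a list of 13 measured genes, of which 5 fell and none rose, with a median of -0.34. Il12b, which encodes p40, a subunit of both IL-12 and IL-23, read 8.45 and 8.02 on the HRG arrays, against 9.55 and 9.32 on the basal arrays. The HRG arrays were lower without overlap (difference -1.20 ± 0.15, 2.29-fold lower, limma adjusted p = 0.00352). Il23a, the p19 subunit of IL-23, read 6.75 and 6.89 with HRG, against 7.78 and 7.45 in basal cells, and fell by 0.79 ± 0.13. Il6 read 11.15 and 10.93 with HRG, against 12.16 and 11.79 in basal cells. It was lower on both HRG arrays and fell by 0.94 ± 0.13 (1.92-fold, limma adjusted p = 0.00705).

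Csf2, which encodes GM-CSF, read 7.63 and 7.27 with HRG, against 8.54 and 8.23 in basal cells, and fell by 0.94 ± 0.19. Csf1, the macrophage growth factor, read 9.50 and 9.23 with HRG, against 10.10 and 10.05 in basal cells, and fell by 0.71 ± 0.11. Il12a, the p35 subunit of IL-12, did not pass (-0.34, adjusted p = 0.206), and neither did Csf3 (-0.67, adjusted p = 0.147). Among 22 genes of the IL-1 and TNF families, Tnfsf9, the ligand 4-1BBL, fell (-0.57) and Tnfsf13b, the B cell survival factor BAFF, rose (0.56). That rise was lost without any 1 array of 6 h or of HRG at 24 h, and the fall without basal 6 h replicate 1 or either HRG 6 h array. Tnf read 10.86 and 10.66 with HRG, against 11.40 and 11.05 in basal cells, a difference of -0.47 ± 0.15 that did not pass (adjusted p = 0.198). Il1b read 12.71 and 12.77 with HRG, against 12.71 and 12.48 in basal cells (difference 0.14 ± 0.11, adjusted p = 0.715). Of 27 chemokines, Cxcl14 rose (0.56) and none fell; none rose without any 1 array of 6 h or of HRG at 24 h, and 2 did without either basal 24 h array.

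Among 18 costimulatory and checkpoint molecules 5 fell and none rose, with a median of -0.16. Cd40, the receptor for the T cell ligand CD154, read 11.01 and 10.73 with HRG, against 11.69 and 11.49 in basal cells, and was lower on both HRG arrays (difference -0.71 ± 0.13, limma adjusted p = 0.0259). Cd83 (-0.69), Cd80 (-0.51), Vcam1 (-0.58) and Tnfsf9 fell with it. Cd86 (-0.37) and Cd274 (0.01) did not pass. Neither did Havcr2, the checkpoint receptor TIM-3, whose difference was the largest of the list in size (0.90 ± 0.22, limma adjusted p = 0.0878); 1 member rose without either basal 24 h array. The cytokine list had 1 fall without HRG 6 h replicate 2, 2 without basal 6 h replicate 1 and 3 without HRG 6 h replicate 1. The costimulatory list had none without HRG 6 h replicate 2 or basal 6 h replicate 1, 1 without HRG 6 h replicate 1 and 2 without either HRG 24 h array.

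Other stress and signalling genes that fell include Gadd45a, a growth arrest gene that p53 and ATF4 both induce (9.85 and 9.31 with HRG, against 10.69 on each basal array; difference -1.11 ± 0.15), Gadd45b (-0.54) and Trp53inp1 (-0.50). With Sesn2 they were the 4 of 20 p53 and growth arrest genes that fell, and none rose (list median -0.15); 1 fell without HRG 6 h replicate 2 or basal 6 h replicate 1, and 2 without basal 6 h replicate 2 or either HRG 24 h array. Traf1 (-0.66) was the 1 of 20 NF-kappaB subunits and feedback inhibitors that passed, and Klf4 (-0.57) the 1 of 29 immediate early and MAPK feedback factors. In the first of these lists none passed without HRG 6 h replicate 2 or basal 6 h replicate 1; in the second none passed without any 1 array of 6 h or of HRG at 24 h, and 1 rose and 2 fell without either basal 24 h array. The Toll-like receptor adaptor Ticam2, which links TLR4 to interferon signalling, fell by 0.96 ± 0.12 and the RNA sensor Tlr8 rose by 0.71 ± 0.12, as the 2 of 21 genes of that list that passed; neither did without HRG 6 h replicate 2, and only the fall did without either basal 6 h array. The largest falls of all were in Mospd4, which read 8.19 and 7.81 with HRG, against 9.55 and 9.37 in basal cells (-1.46 ± 0.13, limma adjusted p = 0.000516), and Fam171b, which read 7.60 and 6.89, against 8.88 and 8.52 (-1.46 ± 0.20). Aqp9, a channel for water and glycerol (-1.07), and Lrrc75a (-1.06) were also among the 15 largest falls.

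Of the genes that rose, Gatm, the enzyme of the first step of creatine synthesis, rose most. It read 9.88 and 9.65 on the HRG arrays, against 8.24 and 8.18 on the basal arrays. Both HRG arrays were higher by more than 1 log2 unit (difference 1.56 ± 0.12, 2.95-fold, limma adjusted p = 0.000220). Arg1, which splits arginine into ornithine and urea, read 12.94 and 13.12 with HRG, against 12.30 and 12.35 in basal cells, and was higher on both HRG arrays (difference 0.70 ± 0.10, limma adjusted p = 0.00637). These were the 2 of 16 genes of creatine, arginine and polyamine metabolism that passed, and without HRG 6 h replicate 2 only 1 of them did. Nos2, which turns arginine into nitric oxide, read 10.37 and 10.54 with HRG, against 10.17 and 10.10 in basal cells, and did not pass (0.32 ± 0.11, adjusted p = 0.240).

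Olr1, the receptor LOX-1 for oxidised lipoprotein, read 12.18 and 12.08 on the HRG arrays, against 10.71 and 10.53 on the basal arrays. It had the lowest adjusted p of the risen genes named here (difference 1.51 ± 0.10, 2.84-fold, limma adjusted p = 0.000102). With Clec7a, the beta-glucan receptor dectin-1 (0.63 ± 0.11), it was 1 of 2 among 20 scavenger receptors and lectins that rose, and none fell; 1 rose without either HRG 6 h array or basal 6 h replicate 2. Mrc1, the mannose receptor, read 6.87 and 6.98 with HRG, against 6.75 and 6.53 in basal cells, and did not pass (0.29, adjusted p = 0.383).

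Among 24 receptors and bridging molecules for apoptotic cells, 3 rose and none fell, with a median of 0.09. Mertk, the receptor kinase that sees phosphatidylserine through Gas6 and protein S, read 10.81 and 10.95 with HRG, against 10.04 and 10.09 in basal cells. Its HRG arrays were both higher (difference 0.81 ± 0.10, 1.76-fold, limma adjusted p = 0.00449). Itgb5, which pairs with the alpha v integrin to bind Mfge8 on dying cells, read 10.21 and 10.12, against 9.38 and 9.27 (difference 0.84 ± 0.10), and Stab1, the phosphatidylserine receptor stabilin-1, read 10.24 and 10.29, against 9.48 and 9.57 (difference 0.74 ± 0.11). Without HRG 6 h replicate 2 only 1 of the 3 passed, and 6 members did without either basal 24 h array. The other TAM receptors and the ligands did not pass: Axl differed by 0.10, Tyro3 by 0.03, Gas6 by 0.03 and Pros1, which encodes protein S, by 0.23. The C1q genes, whose product bridges dying cells to phagocytes, had differences of 0.51 (C1qa), 0.56 (C1qb) and 0.58 (C1qc) that did not pass. Vsig4, a complement receptor of resident macrophages, rose by 0.79 ± 0.15, with unequal HRG arrays (9.33 and 9.76 with HRG, against 8.90 and 8.61 in basal cells). It was the 1 of 17 complement and Fc receptors that passed, and the list had no rise without basal 6 h replicate 2, HRG 6 h replicate 2 or either HRG 24 h array.

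Extracellular nucleotide genes gave 2 risen and 1 fallen among 20, and the fall was lost without any 1 of the HRG arrays or basal 6 h replicate 1. Nt5e, the surface enzyme CD73 that turns AMP into adenosine, read 11.44 and 11.37 on the HRG arrays, against 10.43 and 10.36 on the basal arrays. P2ry6, the receptor for UDP, read 11.46 and 11.30 with HRG, against 10.39 and 10.38 in basal cells. Both genes were about 1 log2 unit higher on each HRG array (1.01 ± 0.10 for Nt5e and 0.99 ± 0.10 for P2ry6, limma adjusted p = 0.00186 and 0.00164). Gna15, a G protein alpha subunit of the Gq class through which such receptors can signal, read 9.89 and 9.67, against 8.79 and 8.63, and rose by 1.07 ± 0.13; Rgs1, which shortens G protein signals, fell by 1.04 ± 0.16. They were the 2 of 23 genes of that list that passed, and it had no fall without basal 6 h replicate 1 or either HRG 6 h array. Of 25 TGF-beta, IL-10 and growth factor genes, Tgfb2 (0.83 ± 0.13) and Fgf2 (0.75 ± 0.11) rose and Inhba, the activin A subunit, fell (-0.51), and Tgfb1 (-0.08) and Il10 (-0.05) did not pass; none of that list rose without either HRG 6 h array, and 1 did without basal 6 h replicate 2. The fall was lost without basal 6 h replicate 1 or any 1 of the HRG arrays. Pmepa1, an inhibitor of Smad signalling that TGF-beta induces, rose by 0.77 ± 0.10. The rest of the 15 largest rises were Fam13a (0.93), Tmem37 (0.87), Creb3l2, an ER-bound transcription factor (0.87), and Carmil1, a regulator of actin capping (0.86).

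**Figure D3:**
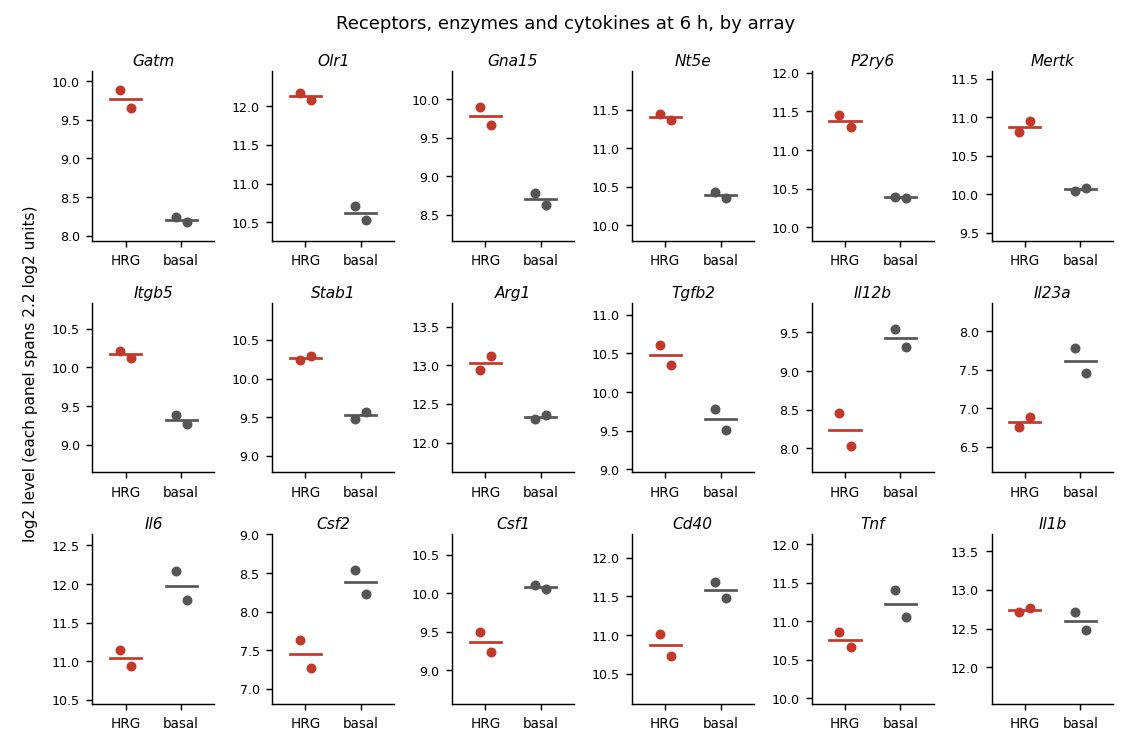
Log2 level of 18 receptor, enzyme and cytokine genes on each HRG array (red, left) and each basal array (grey, right) at 6 h; dots are arrays, bars are means of 2, and every panel spans 2.2 log2 units. HRG arrays lie above the basal arrays from Gatm to Tgfb2 and below them from Il12b to Tnf, whose difference did not pass, and Il1b differed by 0.14.

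Some markers of lymphocytes fell as well. Cd79b, a B cell receptor chain, fell by 0.59 ± 0.12, and Cd3g, a T cell receptor chain, fell by 1.11 ± 0.21 (7.03 and 7.17 with HRG, against 8.10 and 8.33 in basal cells). Of 18 B cell markers 1 fell, 16 differed below 0 and the median was -0.30. Of 19 T and NK cell markers 2 fell (Cd3g and Cd28), 15 differed below 0 and the median was -0.28. Over all genes, 56.1% differed above 0. With 1 array left out, the B cell median ran between -0.34 and -0.29 and the T and NK median between -0.41 and -0.13. The fall in the B cell list was lost without any 1 array of 6 h or of HRG at 24 h. In the T and NK list 3 fell without either basal 24 h array, 1 without basal 6 h replicate 1, and none without any other single array. On a linear scale the B cell markers summed to 10112 and 9980 on the HRG arrays and 12310 and 11784 on the basal arrays, and the T and NK cell markers to 4641 and 4786 against 6143 and 6554, whereas the 18 macrophage markers summed to 79132 and 81882 against 79110 and 75791. In such mixed RNA, fewer cells of a type and less RNA per cell cannot be told apart. The part of lymphocytes in the falls of Rgs1, Ccr7, Dpp4, P2ry10 and Gimap3 was not tested. Nor was their part in the falls of the costimulatory genes Cd40, Cd80 and Cd83.

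The dendritic cell list had 2 falls among 15 (Ccr7 -0.54 and Dpp4 -0.58; none without either basal 6 h array, either HRG 24 h array or HRG 6 h replicate 2), with sums of 4208 and 4384 on the HRG arrays and 5200 and 5024 on the basal arrays. The median of the dendritic cell list was -0.02, beside 0.02 over all genes. Of its 15 genes, 6 had both HRG arrays below both basal arrays and 3 had both above. A linear sum follows its brightest members. Mast cell and eosinophil, neutrophil, and mesothelial and stromal markers had no call by limma in 15, 14 and 18 genes, of which 1, 1 and 2 had an unadjusted p under 0.05. In the macrophage list, Mertk and the transcription factor Cebpa (0.71 ± 0.10) rose and F5, coagulation factor V, fell (-0.79 ± 0.12); Gata6, the regulator of resident peritoneal macrophages, did not pass (0.20). No gene of the macrophage list passed without HRG 6 h replicate 2, 1 rose without HRG 6 h replicate 1, and none fell without basal 6 h replicate 1.

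**Figure D4:**
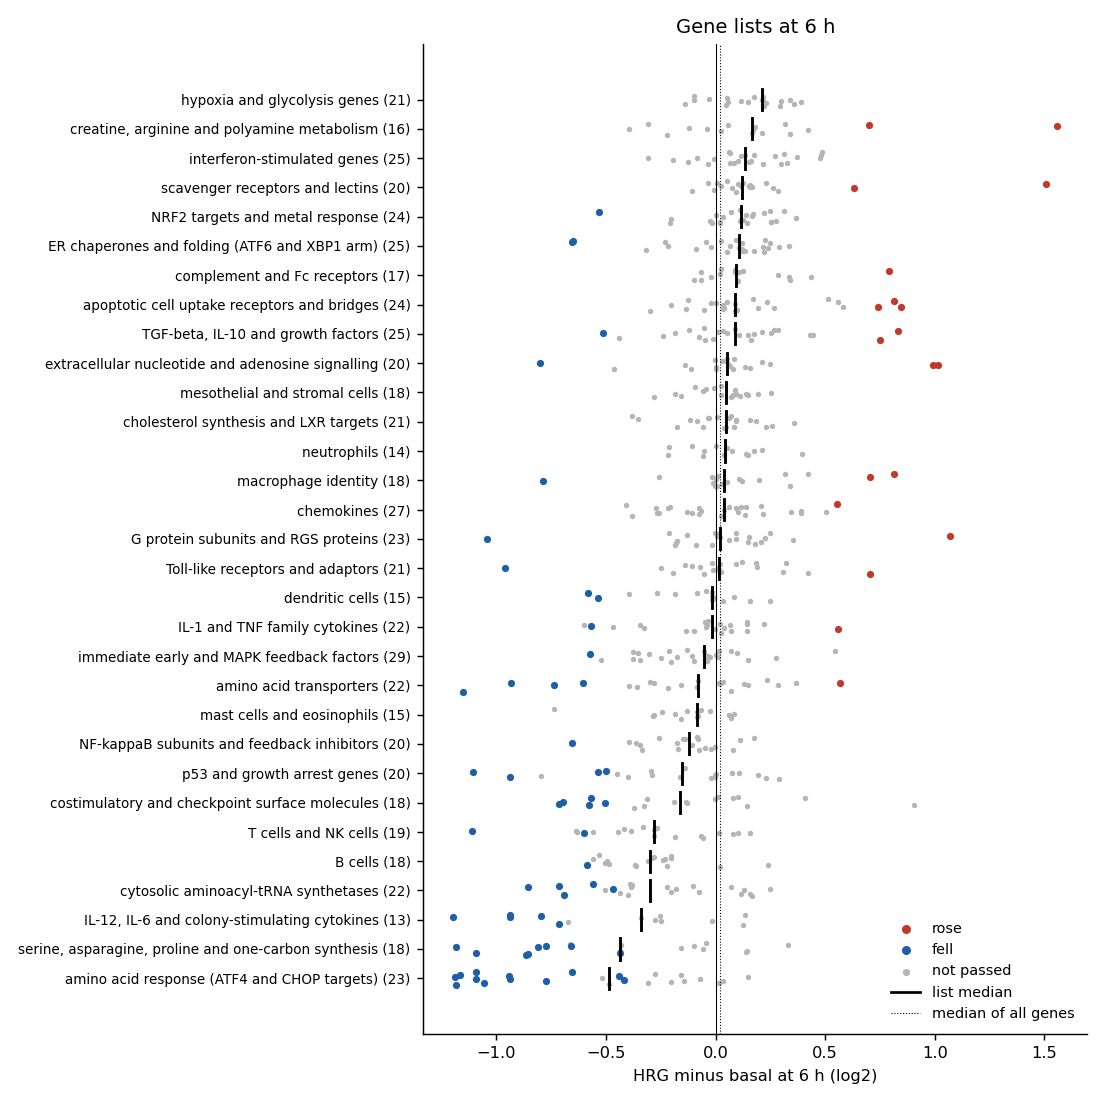
Difference between HRG and basal at 6 h (log2, horizontal axis) for the members of 31 gene lists, ordered by list median (black bar) with the number of measured genes in brackets; red points rose, blue points fell and grey points did not pass. The amino acid response list has the lowest median (-0.49) and the hypoxia and glycolysis list the highest (0.21), where no member passed.

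The arrays of 24 h are other arrays, of cells from the same pool. Both comparisons share each gene's estimate of spread, so calls at 24 h are not independent of the calls at 6 h. Of the 86 genes that rose at 6 h, 68 had a positive difference at 24 h and 43 (50%) rose there too, while 2.43% of all genes rose at 24 h; 3 fell at 24 h, and the median 24 h difference was 0.44. Of the 163 genes that fell at 6 h, 109 had a negative difference at 24 h and 16 (9.82%) fell there too, while 1.05% of all genes fell at 24 h; 4 rose, and the median was -0.10. The test of the difference between the 2 effects passed for 294 genes (1.47%, with 1.02% above 0 and 0.451% below 0), among them 16 of the 86 and 40 of the 163, and in 14 and 40 of these the 24 h effect lay closer to 0 or beyond it. This test uses the 6 h arrays that also chose the genes, so its counts for them are a description.

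Genes higher at both times included Gatm (1.56 at 6 h and 2.15 at 24 h), Olr1 (1.51 and 1.02), P2ry6 (0.99 and 1.05), Itgb5 (0.84 and 1.22) and Mertk (0.81 and 0.51). Vsig4 differed by 0.79 at 6 h and 2.10 at 24 h, and the change of 1.31 between the times passed (limma adjusted p = 0.0131). For Mrc1, which did not pass at 6 h, the 24 h difference was 1.47, and the change of 1.19 also passed (limma adjusted p = 0.00648). Lrp8, a receptor for apolipoprotein E and reelin, was opposite at the 2 times. It read 9.23 and 9.29 with HRG, against 8.68 and 8.60 in basal cells, at 6 h, and 8.54 and 8.48, against 9.43 and 9.68, at 24 h (change of -1.67, limma adjusted p = 0.000578). Slc16a9, a carnitine carrier of the monocarboxylate transporter family (0.69 and -0.79), and Fam13a (0.93 and -0.78) turned in the same way.

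Of the 81 genes of the 4 amino acid lists, 4 fell at both times, Trib3 (-1.06 at 6 h and -0.89 at 24 h), Asns (-1.09 and -0.75), Mthfd2 (-0.86 and -0.52) and Gars (-0.47 and -0.41), and for these the change between the times did not pass. Ddit3 (-1.19 and -0.29) and Chac1 (-1.09 and -0.22) did differ between the times, by 0.90 (limma adjusted p = 0.0173) and 0.88 (limma adjusted p = 0.0266). Ddit3 read 8.96 and 9.04 with HRG, against 9.24 and 9.33 in basal cells, at 24 h, so that the basal arrays of 24 h lay below the HRG arrays of 6 h. Il12b (-1.20 and -0.24, change 0.96) likewise differed between the times, whereas for Il6 (-0.94 and -0.50, change 0.44) the change did not pass. Cd83 (-0.69 and 0.53) and Tnfsf9 (-0.57 and 0.48) fell at 6 h and rose at 24 h. The mean level of the amino acid response list was 9.87 and 9.81 on the basal arrays of 6 h and 9.25 and 9.38 on those of 24 h. With HRG it was 9.33 and 9.22, then 9.13 and 9.15. For the cytokine list the basal values were 8.99 and 8.90, then 8.31 and 8.44. With HRG they were 8.56 and 8.39, then 8.30 and 8.34. The costimulatory list had basal means of 9.74 and 9.59 at 6 h and 9.26 and 9.37 at 24 h. Its HRG means were 9.54 and 9.47, then 9.45 and 9.43. In these lists the basal means dropped more between the times than the HRG means did. The B cell list had a median of 0.57 at 24 h, with 10 of 18 genes risen. The mean level of its markers was 8.73 and 8.49 on the HRG arrays of 24 h, beside 8.54 and 8.51 at 6 h. On the basal arrays it was 8.17 and 7.91 at 24 h, beside 8.86 and 8.82 at 6 h. The positive difference at 24 h thus came with lower basal levels more than with higher levels under HRG.

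**Figure D5:**
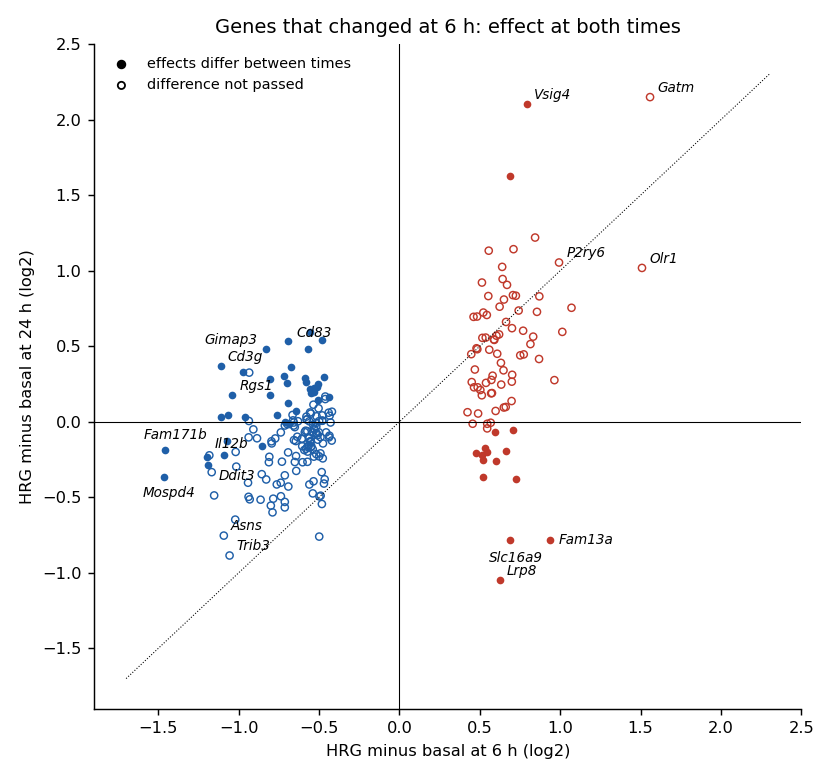
HRG minus basal (log2) at 24 h (vertical axis) against 6 h (horizontal axis) for the 249 genes that changed at 6 h; red genes rose and blue genes fell at 6 h, filled points passed the test of the difference between the times, and the dotted line marks equal effects. Gatm and Olr1 lie high at both times, Lrp8, Slc16a9 and Fam13a cross 0, and the blue genes have a median of -0.10 at 24 h.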

How the data were processed

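Total RNA (250 ng per sample) was amplified, biotin-labelled and hybridised to Affymetrix arrays, per the labels' protocols. The authors deposited log2 values and used Affymetrix Expression Console, RMA and limma, per the submitters' processing notes. Versions and build were not given in the sources used here. Through the platform annotation, which can be old, 21789 of the 28853 rows had 1 gene; 1621 rows with several symbols and 5443 with none were left out, and 999 genes had several rows.

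Differences were computed with limma 3.58.1 in R 4.3.3: 1 coefficient per group over all 8 arrays (4 residual and 7.81 prior degrees of freedom), eBayes, two-sided tests, and Benjamini-Hochberg adjustment over 19938 genes at 0.05. The median SE was 0.107. The scripts were tested on simulated data. The named genes are the 15 largest changes in each direction (predicted genes, clones, small RNAs, receptor segments and olfactory genes aside), the changed members of 31 lists with up to 4 others each, 16 set genes, the 6 largest differences between times in each direction, and cell type markers; the lists held 685 entries, 633 of them measured, 3 under an older name. The comparison, its lists and its named genes were chosen with earlier results of these data known. Alternatives tried were a replicate block, median centring, quantile normalization once more, an eBayes fit with trend and robust, a filter on dim genes, other treatments of rows, a minimum fold, the 4 arrays alone, the lower quartile as a covariate, and each array left out.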

Additional observations from a re-analysis of the deposited data

Results flagged for a closer look

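For 31 of the named genes that changed at 6 h, the limma test of the HRG effect at 24 h minus that at 6 h passed at an adjusted p under 0.05. The values here are that difference on the log2 scale, and the 6 h arrays enter both the choice of the genes and the test. A change between the times can come from the basal arrays as well as from the HRG arrays.

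Of these, 23 fell at 6 h and had a less negative or a positive difference at 24 h: Cd3g (1.48), Gimap3 (1.31), Fam171b (1.27), Cd83 (1.23), Rgs1 (1.22), Gadd45a (1.14), Lrrc75a (1.11), Mospd4 (1.10), P2ry10 (1.08), Tnfsf9 (1.05), Ticam2 (0.99), Il12b (0.96), Aqp9 (0.95), Ddit3 (0.90), Chac1 (0.88), Cd79b (0.87), Dpp4 (0.84), Mt2 (0.76), Ccr7 (0.73), Csf1 (0.71), Aldh1l2 (0.69), Cd80 (0.65) and Jdp2 (0.60). The growth arrest gene Gadd45a, the amino acid response genes Ddit3, Chac1 and Jdp2, the one-carbon enzyme Aldh1l2, the cytokines Il12b and Csf1 and the costimulatory genes Cd83, Cd80 and Tnfsf9 are among them, and so are the lymphocyte markers Cd3g and Cd79b.

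A further 7 genes rose at 6 h and had a lower or a negative difference at 24 h: Fam13a (-1.72), Lrp8 (-1.67), Slc16a9 (-1.47), Sec24d (-0.89), Sephs2 (-0.85), Pgm1 (-0.77) and Cebpa (-0.76). Vsig4 (1.31) rose at 6 h and had a larger difference at 24 h.

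Rows that carried several symbols or none were outside the comparisons of genes. When every row was tested, 14 of these 7064 rows passed at 6 h (0.198%), 3 higher and 11 lower with HRG, beside 0.464% of all rows.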

How the results depend on the processing

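All 249 genes that changed at 6 h kept their sign in every fit that tested them, apart from the fit of every row, where signs were not compared. Most of these fits could not turn a sign. Trend and robust, the replicate block, the dim filter, the minimum fold and the 4 arrays of 6 h leave the 6 h difference as it was. With single arrays left out the sign was fixed too, as the groups did not overlap. Only median centring, quantile normalization, the covariate and the mean over rows could have turned one. The counts of risen and fallen genes were 180 and 312 with trend and robust, 228 and 290 with the lower quartile as a covariate, 164 and 205 with renewed quantile normalization, 45 and 89 with every row, 8 and 17 with a minimum fold of 1.2, and 58 and 97 on the 4 arrays of 6 h, and the cause was not tested. Leaving out 1 array gave 10 to 103 risen and 11 to 184 fallen genes. No scaling moved the median of all genes by over 0.1; risen genes made up 34.5% of calls at first and 44.4% with renewed quantile normalization.

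Genes whose effect differed between the times numbered 294, against 547 with trend and robust, 519 with the covariate and 56 to 404 with 1 array left out. Of the genes called at 6 h, 59 also passed in the same direction at 24 h, against 119 with trend and robust, 123 with the covariate, 93 with renewed quantile normalization and 11 to 71 with 1 array left out. Falls among the synthetases were 5, against 10 with trend and robust, 8 with the covariate, 8 with quantile normalization, 3 on 4 arrays and 0 to 5 with 1 array left out. With 1 array left out, falls ran between 4 and 12 in the amino acid response list, 0 and 8 in the enzyme list and 1 and 6 among the cytokines. The difference of Hspa5 at 6 h, which did not pass, ran between -0.0504 without basal 6 h replicate 2 and 0.00893, with the sign turned, without basal 6 h replicate 1.

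With the replicate number as a block, 82 genes rose and 160 fell, 221 of them among the 249. The labels do not say that a number marks shared handling, and the deviations of same-numbered arrays correlated between -0.308 and 0.356 over the 6 pairs of groups (0.168 between HRG and basal at 6 h, and below 0 in the 3 pairs with basal cells at 24 h). Pairing was taken as given only where every pair was over 0.1, so the numbers were not used to pair arrays. The median SE of 0.107 and 2 arrays a group limit what could be told apart: 2194 genes had an unadjusted p under 0.05.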

Other observations

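Some lists had no or few calls at 6 h. No gene passed among 25 interferon-stimulated genes (median 0.14), 21 cholesterol synthesis and LXR genes (median 0.05) or 21 hypoxia and glycolysis genes (median 0.21). Limma was the only tool run, and 5, 4 and 9 of them had an unadjusted p under 0.05, as had 2194 of all 19938 genes. In the hypoxia and glycolysis list 17 of 21 differed above 0. Both HRG arrays lay above both basal arrays for 15 and below for 2, beside 20% and 18.3% of all genes. In the interferon list these counts were 13 and 4 of 25. Not passing is thus no sign of equal levels. Ifit2 (0.48, adjusted p = 0.184) and Pdk1 (0.39, adjusted p = 0.0814) show the size of such differences. Of 24 NRF2 and metal response genes, the metallothionein Mt2 fell at 6 h (-0.53) and did not pass when any 1 of the 8 arrays was left out, and Hmox1 did not pass (0.11, adjusted p = 0.780). At 24 h, 13 of the 24 fell. Nqo1, the quinone reductase of this list, read 9.51 and 9.59 with HRG, against 9.38 and 8.99 in basal cells, at 6 h, and 8.70 and 8.82, against 10.93 and 11.43, at 24 h (differences of 0.37 and -2.41).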
